A study of Mus musculus with 14 samples.

Results

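The genes Dcn, Lum, Bgn, Sparc, Postn, Fn1 and Vim, which code for matrix proteoglycans, other matrix proteins and the mesenchymal filament protein vimentin, were followed through all arrays of the series. Every probe set, a group of short probes for 1 transcript, whose platform gene symbol is one of these names was taken, with no filter on level, which gave 13 of 22626 probe sets and 7 of 12393 genes. The study used laser microdissection on frozen 8 µm yolk sac sections at E9.5 to capture primitive erythroid precursors, which make the first wave of red cells. There were 3 arrays of KLF1-/- embryos, 3 labelled KLF1-/- KLF2-/- and 8 of wild-type embryos, with strain FVB/N given for all. The pregnant females were KLF1+/- or KLF1+/- KLF2+/-, so each carried an intact copy of the genes named. Each array was hybridised with amplified RNA of 1 pool, made from 2 to 4 yolk sacs of 2 litters, so a value stands for a pool and not for an embryo. The comparisons ask whether transcripts of these genes in the captured material differ without KLF1, a major activator of red cell genes, or with the related factor KLF2 lacking as well.

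Decorin, lumican and biglycan, the products of Dcn, Lum and Bgn, are small leucine-rich proteoglycans, whose core proteins bind collagen fibrils and carry sugar chains. SPARC and periostin (Postn) are matricellular proteins that bind collagen and link cells to the matrix, fibronectin (Fn1) is the adhesive glycoprotein that integrins pull into fibrils, and vimentin (Vim) is the intermediate filament protein of mesenchymal cells. In the yolk sac a mesoderm layer of mesenchyme and mesothelium lies beside the blood islands and the endoderm. Of these genes Fn1 is also made by endoderm and endothelium, Sparc by endothelium and megakaryocytes, and Vim by endothelium and macrophages. By the RefSeq table of GRCm38.p6, Dcn and Lum are immediate neighbours among protein-coding genes, followed by Kera and Epyc, which code for proteoglycans of the same family.

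Promoter sequence was at hand for Bgn, Sparc, Postn and Vim, and Postn had a pair of start sites. The 250 bases before each RefSeq start (GRCm38.p6) were searched on both strands for CCNCNCCC (GGGNGNGG on the other strand), a form of the CACCC box that Krüppel-like factors bind. Matches may overlap each other. There were 7 matches before Bgn, 4 before Vim, 0 and 1 before the Postn starts and 0 before Sparc, and 45.9% of 32851 such windows of all genes hold at least 1. A match is a run of letters and not a measured binding site. The windows of Sparc, Vim and Bgn are printed below 5′ to 3′ on the gene's own strand, with matches in capitals, as examples from the results: Sparc had the largest difference between KLF1-/- KLF2-/- and wild type without the numbered run as a block, 2 of the 3 Vim probe sets, like Postn, separated these groups within their own numbered run, and Bgn had the narrowest intervals. The window of Sparc is chr11:55420081-55420330 on the minus strand, that of Vim chr2:13574061-13574310 and that of Bgn chrX:73483351-73483600, both on the plus strand.
Sparc: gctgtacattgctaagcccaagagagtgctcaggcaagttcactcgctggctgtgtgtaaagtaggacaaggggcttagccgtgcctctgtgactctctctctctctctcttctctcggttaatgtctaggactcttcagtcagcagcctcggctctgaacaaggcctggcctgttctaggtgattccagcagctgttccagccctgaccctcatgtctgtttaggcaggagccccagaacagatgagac
Vim: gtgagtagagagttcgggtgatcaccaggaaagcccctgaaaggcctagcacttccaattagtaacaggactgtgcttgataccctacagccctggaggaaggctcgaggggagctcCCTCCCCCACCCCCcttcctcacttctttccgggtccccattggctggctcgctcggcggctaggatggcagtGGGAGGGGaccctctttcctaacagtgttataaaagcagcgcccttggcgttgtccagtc
Bgn: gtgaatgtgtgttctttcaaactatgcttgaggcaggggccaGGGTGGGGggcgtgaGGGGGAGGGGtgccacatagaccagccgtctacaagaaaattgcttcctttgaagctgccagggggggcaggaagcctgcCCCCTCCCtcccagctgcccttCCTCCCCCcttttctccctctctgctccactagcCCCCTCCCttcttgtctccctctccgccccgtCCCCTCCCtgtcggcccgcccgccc

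Array medians ran from 6.55 to 6.66 (log2 expression) and interquartile ranges from 2.31 on wild-type array 12 to 3.12 on KLF1-/- array 6, so the arrays did not share a distribution. The titles fall into a run numbered 1 to 8, which holds the KLF1-/- arrays with 4 of wild type, and a run numbered 9 to 15, which holds the KLF1-/- KLF2-/- arrays with 4 of wild type. No label calls either run a batch. Between wild-type arrays 9 to 12 and 1 to 4 limma called 0 of 22626 probe sets. At an unadjusted p under 0.05 there were 1614, beside 434 for KLF1-/- and 478 for KLF1-/- KLF2-/- against wild type. The 0 calls therefore do not show that the runs were alike. Klf1 signal was 9.45 ± 0.39 in KLF1-/- (SD, n = 3), 9.15 ± 0.53 in the arrays labelled KLF1-/- KLF2-/- (n = 3) and 10.67 ± 0.63 in wild type (n = 8). Klf2 was 6.22 ± 0.28, 6.69 ± 0.32 and 6.25 ± 0.25 in the same order, and since it was not established here whether these probe sets lie in the deleted parts, neither gene checks the labels. Nothing in the labels says that pools of a group shared no litter, so p-values measure the spread between these pools.

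Decorin and lumican signal was highest in the arrays labelled KLF1-/- KLF2-/- and lowest in KLF1-/-, and neither gene passed the test in any comparison. Dcn read 8.12, 8.66 and 7.90 on KLF1-/- arrays 5, 6 and 8, 8.82, 8.88 and 8.76 on KLF1-/- KLF2-/- arrays 13, 14 and 15, and from 7.69 through a median of 8.30 to 8.89 on the 8 wild-type arrays. The 3 arrays labelled KLF1-/- KLF2-/- lay close together, above every KLF1-/- array, and between the median and the highest of wild type. Their log2 difference from wild type was 0.50 (SE 0.231, 95% interval 0.0079 to 0.997, limma adjusted p = 0.9999) and that of KLF1-/- was −0.09 (95% interval −0.59 to 0.40, limma adjusted p = 0.9998). With the numbered run as a block in the model these became 0.34 and 0.07, and the sign for KLF1-/- turned. In such captured material, fewer cells of a type and less RNA per cell cannot be told apart, here and in what follows.

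Lum, which codes for the keratan sulfate proteoglycan lumican, read 10.56, 11.55 and 11.16 on the KLF1-/- arrays, 11.54, 11.90 and 11.18 on those labelled KLF1-/- KLF2-/-, and 10.48 to 11.69 with a median of 11.39 in wild type. All groups overlapped. The difference from wild type was −0.15 in KLF1-/- (95% interval −0.70 to 0.40) and 0.29 in KLF1-/- KLF2-/- (95% interval −0.26 to 0.85), and that between the mutant genotypes was 0.45. With its 1 probe set Lum followed Dcn in the order of group means, KLF1-/- KLF2-/- above wild type above KLF1-/-, and no neighbouring pair in that order was separated by limma.

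Biglycan, a proteoglycan that also acts as a signal to immune cells, had the narrowest intervals of the 7 genes. The brightest Bgn probe set, 1416405_at, read 7.32, 7.63 and 7.19 in KLF1-/-, 7.48, 7.67 and 7.50 in KLF1-/- KLF2-/-, and 7.27 to 7.75 with a median of 7.45 in wild type. Differences from wild type were −0.09 (95% interval −0.34 to 0.17) and 0.09 (95% interval −0.17 to 0.34). The other Bgn probe sets, 1448323_a_at and 1437889_x_at, gave 0.02 and 0.0037 in KLF1-/- and 0.23 and 0.04 in KLF1-/- KLF2-/-. Across arrays the 3 Bgn probe sets followed each other weakly (Pearson r 0.253 to 0.381, Spearman rho 0.209 to 0.402, permutation p 0.179 to 0.381 and 0.155 to 0.471, adjusted p over 8 pairs of probe sets 0.239 to 0.381 and 0.207 to 0.471), and within the first run 1 pair had r = −0.176.

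Without the numbered run as a block, Sparc held the largest difference from wild type among the 13 probe sets, on the brighter of its probe sets, while the dimmer one gave differences of the other sign. On 1416589_at the values were 10.04, 10.996 and 10.16 in KLF1-/-, 10.68, 10.98 and 10.46 in KLF1-/- KLF2-/-, and 9.06 to 10.62 with a median of 10.13 in wild type. All mutant arrays except KLF1-/- array 5 lay above the wild-type median, and wild-type array 3 was the lowest of all. The difference from wild type was 0.35 in KLF1-/- (SE 0.291, 95% interval −0.28 to 0.97) and 0.65 in KLF1-/- KLF2-/- (SE 0.291, 95% interval 0.0277 to 1.28, limma adjusted p = 0.9999). With the numbered run as a block they were 0.59 and 0.41, and in KLF1-/- KLF2-/- the brighter Vim probe sets (0.53 and 0.70) and Postn (0.52) then lay above Sparc. The wild-type arrays 9 to 12 lay 0.49 above arrays 1 to 4 for Sparc (95% interval −0.14 to 1.13).

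The dimmer Sparc probe set, 1448392_at, which carries the same transcript accession in the platform annotation, read 6.79, 8.25 and 7.30 in KLF1-/-, 7.55, 7.78 and 7.47 in KLF1-/- KLF2-/-, and 6.98 to 8.86 with a median of 7.50 in wild type. Its differences from wild type were −0.18 and −0.03, with 95% intervals of −0.96 to 0.59 and −0.80 to 0.74. Both Sparc probe sets varied together from array to array (Pearson r = 0.628, permutation p = 0.0184, adjusted p = 0.0369; Spearman rho = 0.758, permutation p = 0.00251, adjusted p = 0.01), with r = 0.535 without the 2 arrays farthest from the median and 0.689 and 0.679 within the runs. After quantile normalization that r was 0.324.

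Postn, which codes for periostin, read 10.02, 10.997 and 10.05 in KLF1-/-, 10.78, 10.76 and 10.48 in KLF1-/- KLF2-/-, and 9.68 to 10.98 with a median of 10.26 in wild type. The difference from wild type was 0.04 in KLF1-/- (95% interval −0.51 to 0.59) and 0.36 in KLF1-/- KLF2-/- (95% interval −0.19 to 0.91). KLF1-/- array 6 was the highest of all 14 arrays, and without it the KLF1-/- difference was −0.28. Within the run numbered 9 to 15, every array labelled KLF1-/- KLF2-/- lay above every wild-type array, which read 9.92 to 10.29.

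Fibronectin signal was higher in the means of both mutant genotypes by like amounts, and did not pass the test in either. The bright Fn1 probe set, 1426642_at, read 10.34, 11.40 and 10.50 in KLF1-/-, 10.83, 10.97 and 10.47 in KLF1-/- KLF2-/-, and 9.93 to 10.94 with a median of 10.38 in wild type. The difference from wild type was 0.34 in KLF1-/- (95% interval −0.20 to 0.89) and 0.35 in KLF1-/- KLF2-/- (95% interval −0.20 to 0.90). The dim probe set 1437218_at gave 0.34 and 0.36, with 95% intervals of −0.05 to 0.72 and −0.03 to 0.74, and followed the bright one across arrays (Pearson r = 0.754, permutation p = 0.00187, adjusted p = 0.00748; Spearman rho = 0.675, permutation p = 0.01, adjusted p = 0.0267), with r = 0.573 without the 2 farthest arrays and 0.881 and 0.576 within the runs. Without KLF1-/- array 6, the KLF1-/- differences were 0.02 and 0.12.

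By its brightest probe set, vimentin signal had the largest SD of the 7 genes among wild-type arrays, and on 2 of its 3 probe sets that spread lay in the first run. The brightest Vim probe set, 1438118_x_at, read 11.77, 12.48 and 11.88 in KLF1-/-, 12.07, 12.12 and 11.81 in KLF1-/- KLF2-/-, and 11.08 to 12.66 with a median of 11.54 in wild type. Wild-type arrays 1 to 4 spanned that whole range, with 12.66, 11.76, 12.49 and 11.08 (SD 0.73), while arrays 9 to 12 lay between 11.38 and 11.54 (SD 0.08). Differences from wild type were 0.31 in KLF1-/- (95% interval −0.33 to 0.94) and 0.26 in KLF1-/- KLF2-/- (95% interval −0.37 to 0.89), and with the numbered run as a block 0.04 and 0.53 (95% interval of the second −0.13 to 1.19).

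The second Vim probe set, 1456292_a_at, read 9.74, 11.20 and 10.02 in KLF1-/-, 10.46, 10.42 and 9.98 in KLF1-/- KLF2-/-, and 9.07 to 11.28 with a median of 9.73 in wild type. Its differences from wild type were 0.38 and 0.35, and 0.02 and 0.70 with the numbered run as a block (95% interval of the last −0.24 to 1.64). It followed the brightest one closely (Pearson r = 0.975, permutation p = 1e-05, which is the lowest value 100000 permutations can reach, adjusted p = 8e-05; Spearman rho = 0.952 with the same p and adjusted p; r = 0.956 without the 2 farthest arrays, 0.969 and 0.984 within the runs). On both, the 3 arrays labelled KLF1-/- KLF2-/- lay above wild-type arrays 9 to 12 without overlap. The third probe set, 1450641_at, did not show this: it read 9.35, 9.80 and 8.30 in KLF1-/- KLF2-/-, against 9.27, 8.95, 8.86 and 7.79 on wild-type arrays 9 to 12, and 8.71, 10.08 and 8.55 in KLF1-/-. Its wild-type SD was 0.64 on arrays 9 to 12 and 0.63 on arrays 1 to 4.

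**Figure D1:**
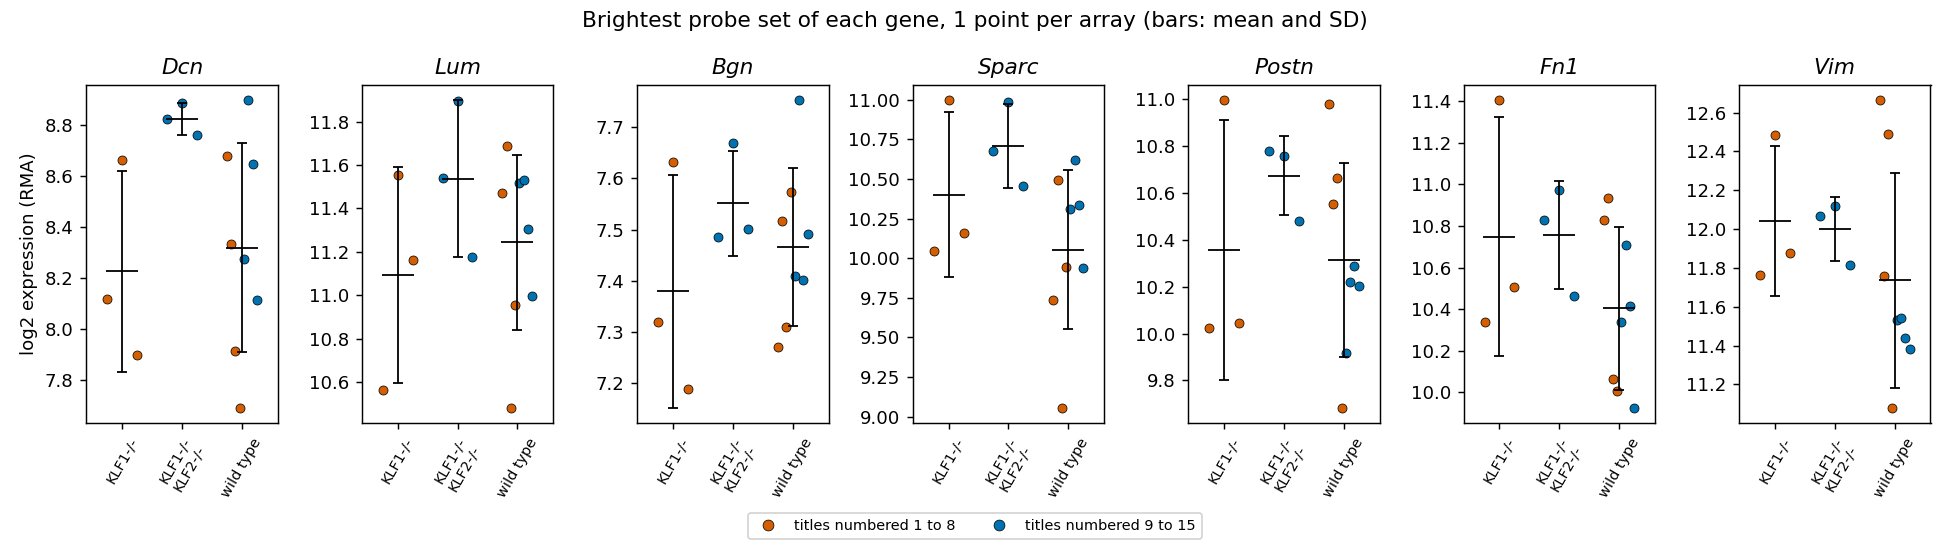
Log2 expression (vertical axis, 1 scale per gene) of the brightest probe set of each of the 7 genes in KLF1-/- (3 arrays), KLF1-/- KLF2-/- (3) and wild type (8), with bars for mean and SD and colour for the numbered run. The 3 arrays labelled KLF1-/- KLF2-/- sit close together for Dcn, from 8.76 to 8.88, and wild-type Vim spans 11.08 to 12.66 in the first run against 11.38 to 11.54 in the second.

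Taking the comparison of KLF1-/- with wild type over all 13 probe sets, 9 lay above 0 with a median of 0.04, beside 51.9% and a median of 0.0059 over all 22626 probe sets. By limma 0 of the 13 were called, where 0.0265% of all probe sets were, and 0 passed an unadjusted p under 0.05, where 1.92% did. No member separated the groups without overlap, against 0.513% of all probe sets, and within the first run 0 did, against 2.96%. Means of KLF1-/- rested much on array 6, which was the highest of all 14 arrays for 3 of the 7 genes and among the 3 highest for 6. Without array 6 the median of the 13 was −0.06, and Dcn was −0.31, Lum −0.38 and the brightest Vim probe set 0.08.

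In KLF1-/- KLF2-/- against wild type, 12 of the 13 probe sets lay above 0 with a median of 0.35, beside 51.7% and a median of 0.0050 over all probe sets. Limma called 0 of them, against 0.0221% of all, and 2 passed an unadjusted p under 0.05, namely those of Dcn and the bright Sparc probe set, where 2.11% of all did. None separated all 3 arrays from all 8 wild-type arrays, which 0.698% of all probe sets did. Within the run numbered 9 to 15 the probe set of Postn and 2 of Vim separated, 3 of 13, where 4.34% of all did. With the run as a block all 13 lay above 0 with a median of 0.41, beside a median of 0.017 over all probe sets. The share of all probe sets above 0 was not counted in that fit. Of the 13, 0 passed an unadjusted p under 0.05, where 1.84% of all did. These 13 probe sets measure 7 genes, and some of these genes vary together from array to array, so they are not 13 separate observations of a shift.

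The direct comparison of KLF1-/- KLF2-/- with KLF1-/-, which asks what differs when KLF2 is lacking besides KLF1, gave 11 of 13 above 0 and a median of 0.15, beside 49.8% and −0.00075 over all. Limma called 0 of the 13 and 0% of all, and 0 of the 13 passed an unadjusted p under 0.05, where 0.628% did. Only the Dcn probe set separated the groups (0.60, 95% interval −0.0014 to 1.19, limma adjusted p = 0.999994), where 3.48% of all probe sets did. Measured against the wild-type arrays of each run, that Dcn difference was 0.27 (95% interval −0.50 to 1.03). The 2 brighter Vim probe sets gave −0.04 and −0.03, and 0.48 and 0.68 when each mutant was set against its own run. The bright Sparc probe set gave 0.31, and −0.19 when set against its own run. By the brightest probe sets, group means ran KLF1-/- KLF2-/-, wild type, KLF1-/- from high to low for Dcn, Lum and Bgn, KLF1-/- KLF2-/-, KLF1-/-, wild type for Sparc, Postn and Fn1, and KLF1-/-, KLF1-/- KLF2-/-, wild type for Vim, and limma separated no neighbours in these orders. Both comparisons with wild type share the 8 wild-type arrays, so their agreement in sign is not independent.

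**Figure D2:**
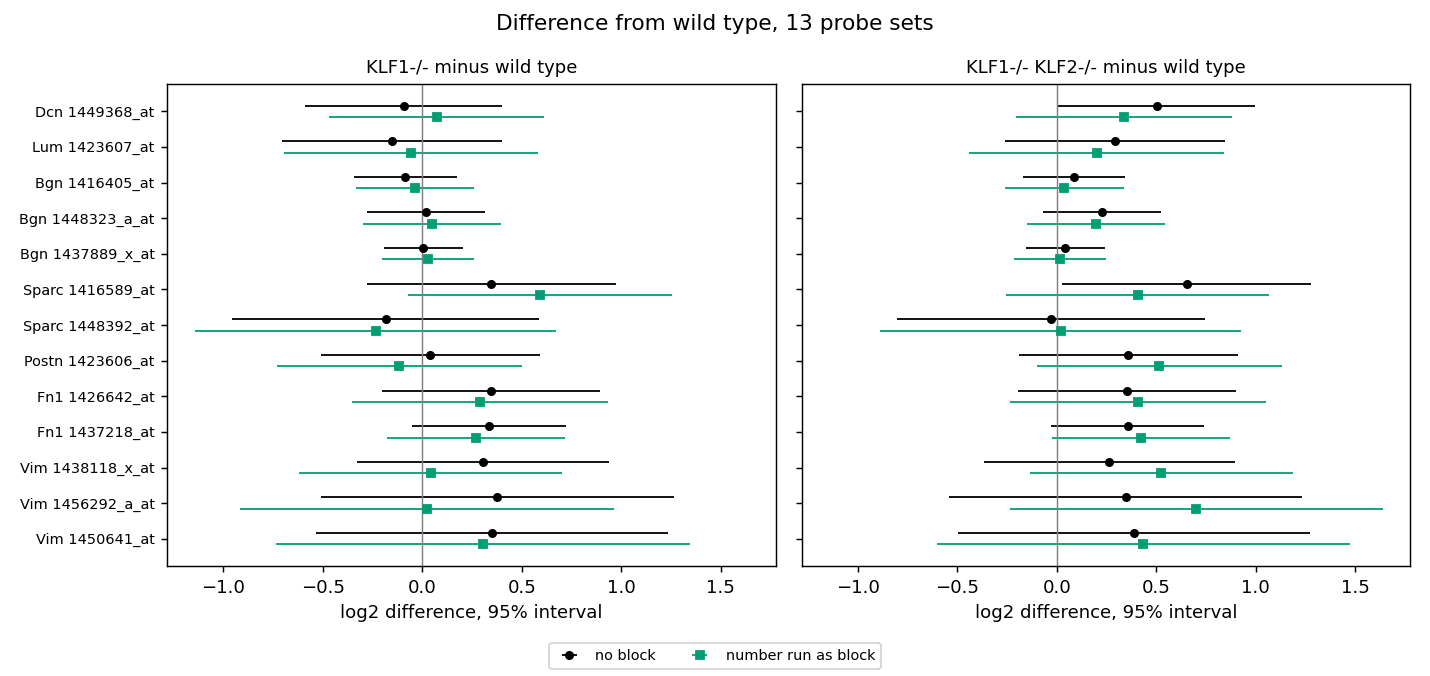
Log2 difference from wild type (horizontal axis, 95% interval) of the 13 probe sets, for KLF1-/- at left and KLF1-/- KLF2-/- at right, without a block and with the numbered run as a block. Without the block only Dcn and the bright Sparc probe set in KLF1-/- KLF2-/- have intervals that leave out 0, and with it none does.

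Over the 14 arrays the genes formed overlapping groups that varied together. Of 21 pairs of genes, each by its brightest probe set, 10 passed an adjusted permutation p under 0.05 for Pearson's r and 9 for Spearman's rho, all 10 positive. Sparc and Lum had r = 0.782 (permutation p = 0.00084, adjusted p = 0.00882; rho = 0.829, permutation p = 0.00036, adjusted p = 0.00378), with r = 0.686 without the 2 arrays farthest from the median of Lum and 0.695 and 0.886 within the runs. The neighbours Dcn and Lum had r = 0.702 (permutation p = 0.00525, adjusted p = 0.0184; rho = 0.719, permutation p = 0.00541, adjusted p = 0.0189), 0.741 without 2 arrays and 0.67 and 0.596 within the runs. Fn1 went with Lum, Sparc, Postn and Dcn, at r = 0.747, 0.721, 0.7 and 0.686 (permutation p = 0.00217, 0.00378, 0.00509 and 0.00708, adjusted p 0.0152 to 0.019), with rho 0.675 to 0.864, r of 0.517 to 0.795 without 2 arrays, and r of 0.702 to 0.881 and 0.694 to 0.985 within the runs.

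Postn and Vim formed the tightest pair, with r = 0.856 (permutation p = 0.00011, adjusted p = 0.00231) and rho = 0.785 (permutation p = 0.00147, adjusted p = 0.0103). It was 0.77 without wild-type array 4 and KLF1-/- array 6, 0.905 and 0.879 within the runs, and 0.9 over the wild-type arrays alone. For the other pairs that passed by Pearson's r, the wild-type arrays alone gave 0.4 (Dcn with Postn) to 0.84 (Lum with Sparc). The permutations took no account of genotype or run. No pair of Vim with a proteoglycan or Sparc passed, at r = 0.312 with Dcn, 0.115 with Lum, −0.244 with Bgn and −0.0714 with Sparc (permutation p = 0.273, 0.694, 0.397 and 0.808, adjusted p = 0.358, 0.756, 0.491 and 0.808; rho 0.319, 0.213, −0.257 and 0.0989). Within the first and the second run these r were 0.687 and 0.655 with Dcn and 0.168 and 0.653 with Lum. They were −0.283 and 0.287 with Bgn, and −0.127 and 0.832 with Sparc. For Dcn, then, the low r over all arrays was not seen within either run. The spread of an array's values moved with some of these genes. Pearson's r with the array's interquartile range was 0.86 for Fn1, 0.752 for Lum and 0.678 for Sparc (permutation p = 0.00016, 0.00203 and 0.00783, adjusted p over 7 genes 0.00112, 0.0071 and 0.0183; rho 0.767, 0.846 and 0.714; r of 0.722, 0.843 and 0.589 without 2 arrays, 0.946, 0.802 and 0.813 within the first run and 0.683, 0.913 and 0.679 within the second), and 0.347 for Vim (permutation p = 0.223, adjusted p = 0.223, rho 0.187). Quantile normalization, which gives all arrays 1 distribution, lowered the median r of the 21 pairs to 0.427, beside 0.557 on the deposited values, with 0.809 for Postn with Vim and 0.714 for Sparc with Lum. It was lower for Fn1 with Lum, Sparc, Postn and Dcn, at 0.429, 0.602, 0.427 and 0.498, and for Dcn with Lum, at 0.521.

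**Figure D3:**
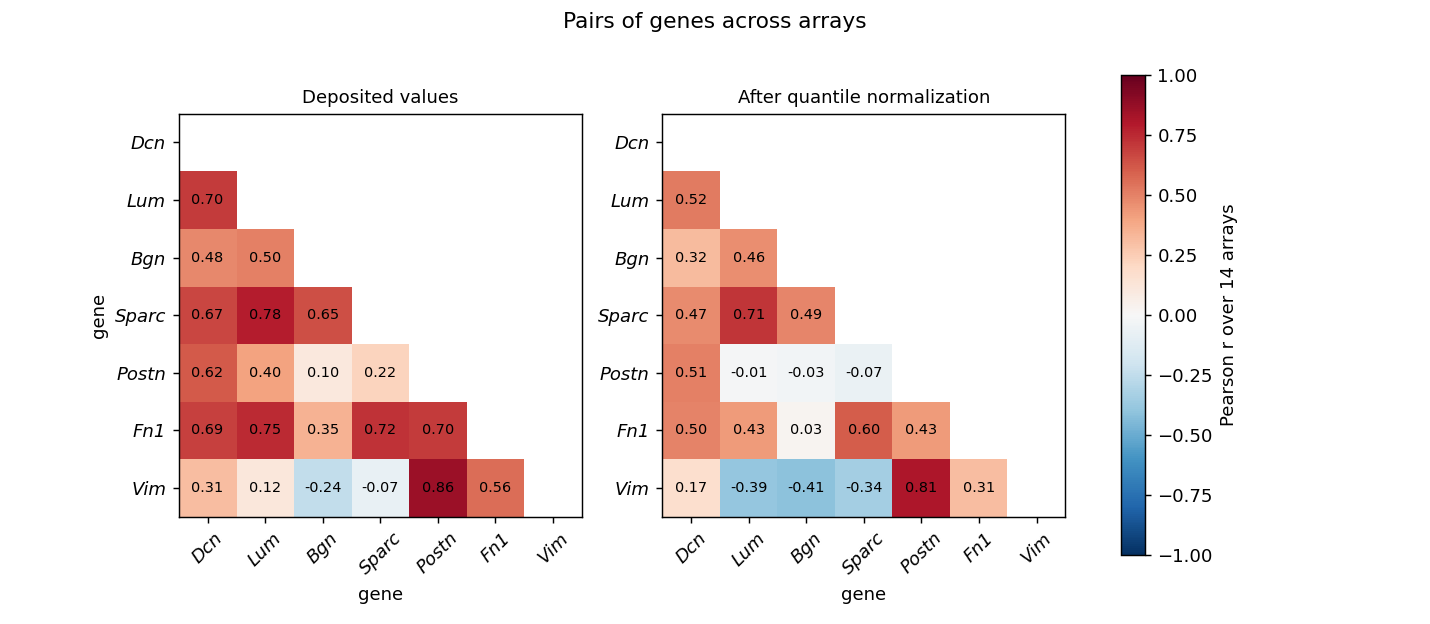
Pearson r over 14 arrays for the 21 pairs of genes (both axes list genes), on the deposited values at left and after quantile normalization at right, with red for positive and blue for negative r. Postn with Vim is the darkest square in both, at 0.86 and 0.81, and Vim with Lum, Bgn and Sparc is pale at left and blue at right.

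**Figure D4:**
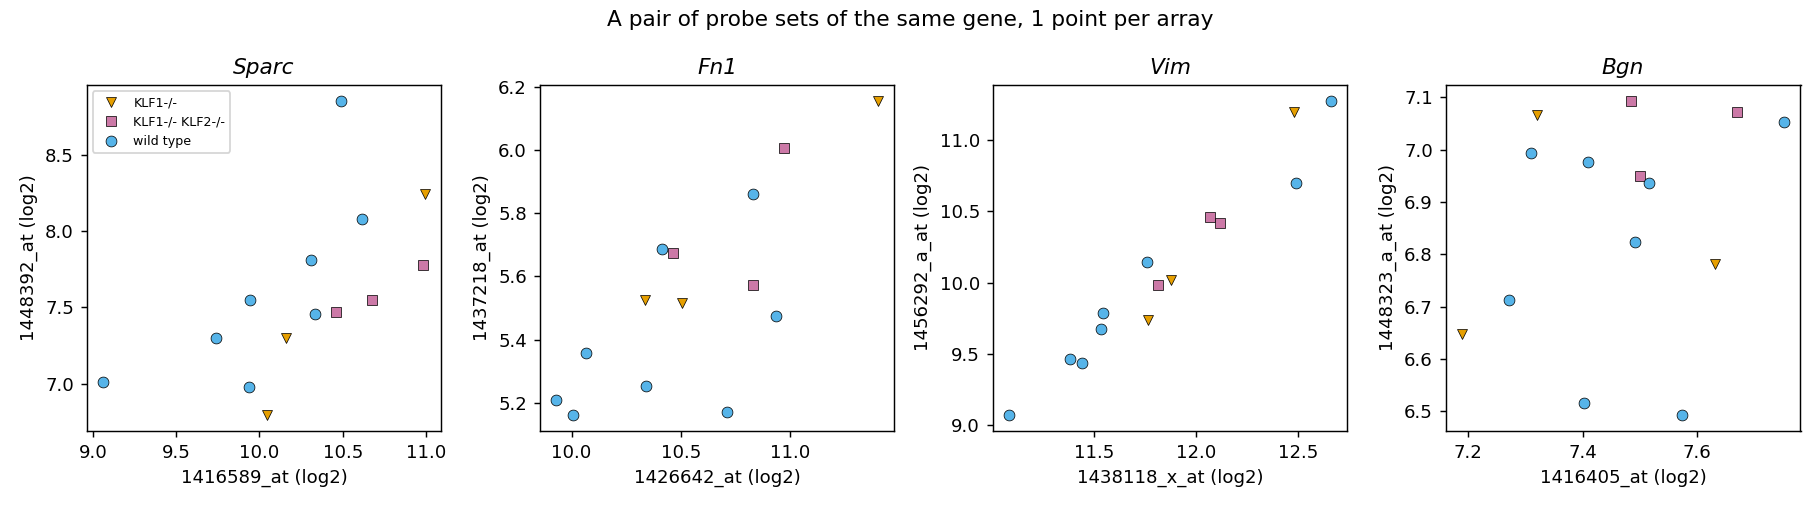
One probe set against another of the same gene, both axes in log2 expression, 1 point per array, with symbols for KLF1-/-, KLF1-/- KLF2-/- and wild type. The Vim pair falls near a line (r = 0.975), Fn1 and Sparc follow more loosely (0.754 and 0.628), and the Bgn pair shows no clear trend (0.253).

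The genes whose brightest probe set was most like each member over the 14 arrays, by Pearson r among 12392 other genes, were as follows. Dcn was most like Col1a2, a chain of type I collagen, at 0.89, then Ldb2 at 0.868 and Ccn4, a matricellular protein gene, at 0.862. Lum was most like Arl1, Anxa5 and Lyve1, at 0.918, 0.91 and 0.903. Bgn had weaker likenesses, with Rcn3, Rabggta and Sgms1 at 0.741, 0.74 and 0.733.

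For Sparc they were Prkar1a, Pi4k2a and Atxn7l3b, at 0.953, 0.946 and 0.944, and for Postn they were Cldn5, a tight junction gene of endothelium, Celf2 and Ndrg1, at 0.943, 0.941 and 0.929. Fn1 was most like Xpr1, Tnfaip1 and the chemokine gene Cxcl12, at 0.981, 0.964 and 0.956. Vim was most like Vasn, Lztr1 and Copb2, at 0.949, 0.949 and 0.947, and the Vim, Vasn and Lztr1 probe sets all carry the suffix _x_at, which marks sets with probes that may bind other transcripts. The median r over all genes lay between −0.0918 and 0.0216 for the 7 members. For no member was another member among the 3 most alike: the nearest ranked 40 (Sparc for Bgn) to 1078 (Lum for Fn1). After quantile normalization the first-ranked genes Col1a2 (Dcn) and Prkar1a (Sparc) again ranked 1, Xpr1 (Fn1) ranked 4, Vasn (Vim) 23, Cldn5 (Postn) 31, Arl1 (Lum) 67 and Rcn3 (Bgn) 69. Others fell further, with Lyve1 at 133 for Lum, Celf2 at 163 for Postn, Rabggta and Sgms1 at 177 and 717 for Bgn, and Pi4k2a at 294 for Sparc.

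Genes that work with the members gave 0 calls by limma in either direction, in each list given here and in both comparisons with wild type. Of all probe sets 0.0265% were called in KLF1-/- and 0.0221% in KLF1-/- KLF2-/-, so 0 calls in such short lists tells nothing particular of these genes. Counts and medians of a list go by the brightest probe set of each gene and include the members it holds. Examples are by the probe set with the smallest p. Of 12 small leucine-rich proteoglycan genes 11 were measured, 1 lay above 0 in KLF1-/- and 6 in KLF1-/- KLF2-/-, with medians of −0.09 and 0.05. Without Dcn, Lum and Bgn they were 1 and 3 of 8, with medians of −0.05 and −0.02. Fmod, the fibromodulin gene, had the smallest p in KLF1-/-, on a probe set reading 4.76 ± 0.28 there and 5.17 ± 0.43 in wild type (SD, n = 3 and 8), and its brighter probe set differed by −0.18. The fibrillar collagens that these proteoglycans bind, 6 of 6 measured, had 4 and 5 above 0, with medians of 0.02 and 0.19. Col1a2 was 10.47 ± 0.45 in KLF1-/- KLF2-/- (n = 3) and 9.86 ± 0.69 in wild type (n = 8), a difference of 0.60 (SE 0.399, limma adjusted p = 0.9999), and Col1a1 differed by 0.41.

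Of the matricellular genes 14 of 15 were measured, with 8 and 10 above 0 and medians of 0.05 and 0.07, and without Sparc and Postn 6 and 8 of 12, with medians of 0.03 and 0.03. Thbs1 codes for thrombospondin 1, a protein of platelets and matrix. It was 5.90 ± 0.34 in KLF1-/- (SD, n = 3) and 5.33 ± 0.18 in wild type (n = 8). The difference was 0.57 (SE 0.153, limma adjusted p = 0.9998), and the groups overlapped. Its brightest probe set differed by 0.60 (SE 0.225) with no overlap, which 0.513% of all probe sets showed. Fibronectin receptors and other matrix glycoproteins (20 of 21 measured) had 10 and 13 above 0, with medians of 0.04 and 0.09 (9 and 12 of 19 without Fn1, with medians of −0.0041 and 0.09), and matrix enzymes and their inhibitors (15 of 16 measured) had 12 and 12, with medians of 0.06 and 0.16. Among the former Mfap4 differed by −0.38 in KLF1-/- KLF2-/-. Among the latter Timp3, a metalloprotease inhibitor, had a difference of 0.46 in KLF1-/-. In KLF1-/- KLF2-/- Mmp14 differed by −0.34, while its brightest probe set differed by 0.17. Loxl1, a collagen and elastin cross-linking enzyme, differed by 0.36 there. TGF-beta ligands and receptors (11 of 11) had 9 and 6 above 0, with medians of 0.06 and 0.03, and intermediate filament genes (10 of 11) had 5 and 6, with medians of −0.03 and 0.03 (4 and 5 of 9 without Vim, with medians of −0.08 and 0.01).

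Markers of other cells were read beside these values. The mean log2 level of 21 mesenchyme and mesothelium markers, all 21 measured, was 6.74 to 7.07 in KLF1-/-, 6.95 to 7.06 in KLF1-/- KLF2-/- and 6.64 to 7.19 in wild type, with 13 of 21 above 0 in either comparison with wild type. Prrx1, a limb and body wall mesenchyme factor, read on its dimmer probe set 5.24 ± 0.04 in KLF1-/- (SD, n = 3) and 5.47 ± 0.12 in wild type (n = 8) with no overlap, and on its brightest one 6.13 ± 0.38 and 6.15 ± 0.34 with overlap. Tbx20, a heart mesoderm factor, read 6.24 ± 0.56 in KLF1-/- KLF2-/- (n = 3) and 5.45 ± 0.36 in wild type (n = 8), and limma called neither gene. In wild type the smooth muscle actin gene Acta2 read 11.42 to 12.28 and the receptor gene Pdgfra 6.89 to 7.82, while the transcription factor gene Hand2 read 4.96 to 5.54. The array scale has no zero, so no marker can be called absent from it. Endothelial markers (10 of 10) were 6.64 to 7.02, 6.61 to 6.82 and 6.46 to 6.89 in KLF1-/-, KLF1-/- KLF2-/- and wild type, and visceral endoderm markers (9 of 10) 10.97 to 11.76, 10.998 to 11.15 and 10.32 to 12.14.

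Macrophage markers (10 of 10) were 6.84 to 6.96 in KLF1-/- KLF2-/- and 6.34 to 6.82 in wild type, with no overlap, and 6.34 to 6.62 in KLF1-/-. Megakaryocyte and platelet markers (7 of 8) were 7.73 to 8.12 in KLF1-/- KLF2-/-, 7.45 to 7.61 in KLF1-/- and 7.10 to 7.49 in wild type. Of these, 7 of 10 macrophage and 7 of 7 megakaryocyte genes lay above 0 in KLF1-/- KLF2-/- against wild type, and 1 of 10 and 6 of 7 did in KLF1-/-. In KLF1-/- KLF2-/- the median of the macrophage genes was 0.21, with 1.42 for Laptm5. Gp1bb counted above 0 at 0.00070 on its brightest probe set, where the groups overlapped. On its dimmer probe set Gp1bb differed from wild type by 0.92 (SE 0.191, limma adjusted p = 0.312) with no overlap. Of all probe sets 0.698% showed no overlap in this comparison. How often other gene lists separate these groups was not tested. Ppbp, a platelet chemokine gene, was 8.08 ± 0.56 in KLF1-/- KLF2-/- (SD, n = 3) and 6.55 ± 0.39 in wild type (n = 8, limma adjusted p = 0.197). Macrophages also make Vim and megakaryocytes also make Sparc, and the part of these cells in the members' values was not tested. Erythroid markers (9 of 10), the labelled cell type, were 10.65 to 10.91 in KLF1-/-, 10.42 to 11.27 in KLF1-/- KLF2-/- and 10.70 to 11.61 in wild type. Of these 9 genes, Klf1 among them, 1 lay above 0 in KLF1-/- and 6 in KLF1-/- KLF2-/- against wild type. Slc4a1 differed by −1.04 in KLF1-/- (limma adjusted p = 0.9998) with no overlap, which 0.513% of all probe sets showed. In wild type the embryonic beta-like globin gene Hbb-bh1 read 14.15 to 14.71 and the globin gene Hba-a1 4.47 to 4.82. Only probe sets paired with 1 gene were read, so any that Hba-a1 shares with another gene are not in that value. The low reading therefore does not show that Hba-a1 was little expressed.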

How the data were processed

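Values of the deposited table are given as log2 expression from RMA, a method that corrects background, normally brings arrays to a common scale and combines the probes of each set. Their interquartile ranges ran from 2.31 to 3.12 over the arrays, so the deposited values did not share a distribution. Why they did not was not tested. GCOS, affy and limma are also listed in the submitters' processing notes, with no version. RMA narrows differences between weak signals. The labels' protocols give 10 to 20 ng of RNA per array, amplified in a two-cycle reaction from the poly(A) tail, so 3′ ends and RNA quality weigh on each value. The deposited values were used as they are. The 64 control probe sets were left out, leaving 22626. The platform annotation pairs 20380 of these with 1 gene, 691 with several and 1555 with none, and 20351 gene identifiers were found in the RefSeq table of GRCm38.p6, which changed 0 symbols. The files give no genome build. Promoter windows are RefSeq's.

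A mean for each genotype was estimated over 14 arrays and 22626 probe sets with limma 3.58.1 in R 4.3.3 (lmFit, eBayes, two-sided), with Benjamini-Hochberg adjustment over all probe sets and calls at an adjusted p under 0.05. Correlations used permutation tests with 100000 resamples, adjusted within each family (21 pairs of genes, 8 pairs of probe sets, 7 genes with the interquartile range). Except for list examples, a gene's level is that of its brightest probe set by mean log2 over the arrays, and levels of different probe sets are not compared. Of the 13 probe sets, 11 lie above the median level of all. Named genes were all members, the 3 genes most like each member, and examples from each list among the 2 members with the smallest p. The marker genes given with values, and the printed promoters, were chosen after their values were seen. Members and lists were chosen with earlier results of these data known. No array copied another, 0 columns lay outside the 14 samples, and the fit was tested on simulated data. The number of arrays limits the precision. Tables and figures used Python 3.11.15, pandas 2.3.3, numpy 2.4.6, scipy 1.17.1 and matplotlib 3.10.9. Alternatives changed the numbered run as a block, the arrays in the fit, the probe sets tested, normalization, the variance model, array weights and a Gapdh 3′ over 5′ covariate. Quantile normalization with the block, and of the correlations, was added after seeing the data.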

Additional observations from a re-analysis of the deposited data

How the results depend on the processing

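No paired analysis was possible because the genotypes share no replicate number in the titles. Calls and directions are given by limma. The number of arrays limits precision, and signal over background is not given in the files. Members called stayed at 0 in all 3 comparisons under every alternative except array weights, which gave 2 in KLF1-/- against wild type, 7 in KLF1-/- KLF2-/- against wild type and 12 between the mutant genotypes. Those weights stopped before convergence, with 93.0 for KLF1-/- KLF2-/- array 13 and 0.167 for KLF1-/- array 6, and with them 1494, 4704 and 13656 of all probe sets were called. The median of the 13 members in KLF1-/- against wild type, 0.04, was 0.0043 after quantile normalization, −0.18 with array weights and −0.06 to 0.21 leaving out each array. In KLF1-/- KLF2-/- against wild type, 0.35, it lay between 0.29 and 0.41, and 0.21 to 0.46 leaving out each array. Between the mutant genotypes, 0.15, it lay between 0.14 and 0.39, and 0.07 to 0.41 leaving out each array.

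Of all probe sets, 6 were called in KLF1-/- against wild type, 2 with the numbered run as a block, 1 with the run fitted alone, and 2 to 7 leaving out each array (2 without KLF1-/- array 6). In KLF1-/- KLF2-/- against wild type 5 were called, 8 with 1 probe set per gene, 8 above the median level, 9 after quantile normalization, 10 with a trended and robust eBayes, 12 with quantile normalization and the block, and 1 to 7 leaving out each array (1 without KLF1-/- KLF2-/- array 13, 7 without KLF1-/- array 6). Between the mutant genotypes 0 were called, 142 at an unadjusted p under 0.05, 1 each with 1 probe set per gene, above the median level and after quantile normalization, and 0 to 1 leaving out each array (1 without KLF1-/- array 5). The cause was not tested for any of these.

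The values whose sign turned belong to probe sets that limma had not called in the fit without these changes. With array weights, which stopped before convergence, the turned Vim values between the mutant genotypes were called. Their limma adjusted p was 0.0473 for 1438118_x_at and 0.00281 for 1456292_a_at. Leaving out arrays turned 37 values and left 509 with theirs. With the numbered run as a block, values of the other sign were, in KLF1-/- against wild type, 0.072 for Dcn 1449368_at and −0.12 for Postn 1423606_at and, in KLF1-/- KLF2-/- against wild type, 0.019 for Sparc 1448392_at and, between KLF1-/- KLF2-/- and KLF1-/-, −0.015 for Bgn 1437889_x_at, −0.19 for Sparc 1416589_at, 0.48 for Vim 1438118_x_at and 0.68 for Vim 1456292_a_at. With each run fitted alone, values of the other sign were, in KLF1-/- against wild type, 0.072 for Dcn 1449368_at and −0.12 for Postn 1423606_at and, in KLF1-/- KLF2-/- against wild type, 0.019 for Sparc 1448392_at. With array weights, values of the other sign were, in KLF1-/- against wild type, −0.18 for Bgn 1448323_a_at, −0.17 for Bgn 1437889_x_at, −0.12 for Sparc 1416589_at, −0.18 for Postn 1423606_at and −0.27 for Vim 1450641_at and, in KLF1-/- KLF2-/- against wild type, −0.068 for Bgn 1416405_at and −0.070 for Bgn 1437889_x_at and, between KLF1-/- KLF2-/- and KLF1-/-, 0.19 for Vim 1438118_x_at and 0.44 for Vim 1456292_a_at. With the Gapdh 3′ excess as covariate, values of the other sign were, in KLF1-/- against wild type, −0.057 for Postn 1423606_at and, between KLF1-/- KLF2-/- and KLF1-/-, 0.031 for Vim 1438118_x_at and 0.089 for Vim 1456292_a_at. With quantile normalization and the block, added after seeing the data, values of the other sign were, in KLF1-/- against wild type, −0.090 for Postn 1423606_at and, in KLF1-/- KLF2-/- against wild type, −0.0043 for Bgn 1416405_at and 0.0088 for Sparc 1448392_at and, between KLF1-/- KLF2-/- and KLF1-/-, −0.030 for Bgn 1437889_x_at, −0.28 for Sparc 1416589_at, −0.022 for Fn1 1426642_at, 0.26 for Vim 1438118_x_at and 0.55 for Vim 1456292_a_at. After quantile normalization, values of the other sign were, between KLF1-/- KLF2-/- and KLF1-/-, −0.018 for Fn1 1426642_at. Leaving out each array in turn gave, in KLF1-/- against wild type, −0.31 to 0.070 for Dcn 1449368_at, −0.38 to 0.11 for Lum 1423607_at, −0.21 to 0.0097 for Bgn 1416405_at, −0.098 to 0.11 for Bgn 1448323_a_at, −0.078 to 0.091 for Bgn 1437889_x_at, −0.59 to 0.14 for Sparc 1448392_at, −0.28 to 0.21 for Postn 1423606_at, −0.064 to 0.67 for Vim 1456292_a_at and −0.13 to 0.63 for Vim 1450641_at. Leaving out each array in turn gave, in KLF1-/- KLF2-/- against wild type, −0.12 to 0.15 for Sparc 1448392_at. Leaving out each array in turn gave, between KLF1-/- KLF2-/- and KLF1-/-, −0.049 to 0.12 for Bgn 1437889_x_at, −0.17 to 0.55 for Sparc 1448392_at, −0.20 to 0.34 for Fn1 1426642_at, −0.11 to 0.23 for Fn1 1437218_at, −0.18 to 0.18 for Vim 1438118_x_at, −0.32 to 0.41 for Vim 1456292_a_at and −0.29 to 0.52 for Vim 1450641_at.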
